A study of Drosophila melanogaster with 19 samples.

Results

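A set of 122 genes of the Drosophila array was higher on the arrays labelled ttk over-expression than on their control arrays, both in whole embryos and in sorted cells. The set was chosen by that rise among 12679 genes and makes up 0.962% of them. Values are the deposited log2 expression minus the median of each array over all genes, so that 0 is the middle gene of an array and 1 unit is a doubling. A gene was taken when its mean on the over-expression arrays was at least 0.8 above the control mean in embryos and in cells, and when every over-expression array was above every control array in both. The over-expression values of these genes are therefore given as a description, without a test.

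Tramtrack (Ttk) is a zinc finger transcription factor of the BTB family that is best known as a repressor. It holds back neural fates in the embryo and is needed for the shape and size of the tracheal tubes, the branched epithelium through which the larva breathes. Tracheal cells and cells of the ventral midline use the enhancer of breathless (btl), which encodes an FGF receptor.

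The over-expression experiment held 3 arrays of embryos and 2 of cells labelled btl-GAL4 UAS-ttk btl-enh-RFPmoe, beside 3 arrays of embryos and 2 of cells of a control labelled btl-GAL4 btl-enh-RFPmoe. The mutant experiment held 2 arrays of embryos and 2 of cells labelled ttk2D50 btl-enh-RFPmoe, beside 2 arrays of embryos and 3 of cells of a control carrying btl-enh-RFPmoe. Every group thus carried a red fluorescent moesin under the btl enhancer, by which the cells were sorted, and each sample was RNA of pooled embryos or cells of stages 11 to 16. Because btl-GAL4 drives the transgene only where btl is active, only part of a whole embryo received it, and the sorted cells also hold cells other than trachea. The mutant embryos were picked by the absence of a green balancer. The labels give 29 °C for the over-expression experiment and 25 °C for the mutant experiment, so that the experiments differ in temperature, and the methods give the lower temperature for both. The over-expression control is described in more than 1 way in the labels, and its 2 cell samples carry the strain name of the mutant, so groups were assigned from sample titles.

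The RNA of ttk did not follow the labels. Control embryos gave 3.19, 3.15 and 3.15, while the embryos labelled over-expression gave 2.77, 2.30 and 2.99. Control cells held 3.70 and 3.83, and the cells labelled over-expression held 2.88 and 3.09. The over-expression arrays were thus below every control array in both materials, and it is not known which ttk transcripts the probes read. In the other experiment ttk stood at 3.84 and 1.38 in control embryos and at 3.85 and 3.5 in mutant embryos, while the mutant cells at 4.25 and 4.24 were above the 3 control cell arrays at 3.37 to 3.49. The direction of every change below therefore rests on the labels, and the groups are named as labelled.

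Few of the 122 genes could be named. The gene table paired 3 of them with a symbol, which are CG33272, Spn77Bb and NT5E-2. A further 9 stood in the study's lists of enriched Gene Ontology terms. Those lists were chosen on these same arrays or on S2 cells of another data set, and the S2 lists held 2 of the 122. A symbol and a term were both missing for 110 genes. These genes are given by FlyBase number. Terms present in the set included amine metabolic process with 3 genes and proteolysis with 2. Carbohydrate metabolic process, G-protein coupled receptor signalling, small molecule metabolic process, axon guidance and oogenesis had 1 each. Over all 12679 genes, 460 stood in such a list. Several lists were held only as shortened copies, so these counts and the 9 genes are minimums. None of the 23 gene lists written for this report had enough of its symbols paired to be described as a list.

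The rise was similar in size in both materials, which the rule in part set by asking for at least 0.8 in each. Over all 12679 genes the embryo and cell differences had a Pearson r of 0.38. In embryos the difference ran from 0.81 to 4.23 with a median of 1.39, and 97 of the 122 genes reached 1, 26 reached 2 and 3 reached 3. In cells it ran from 0.80 to 3.80 with a median of 1.38, and 98 genes reached 1, 23 reached 2 and 7 reached 3. For all genes together the embryo median was -0.09 and the cell median -0.08. The difference was larger in cells for 62 of the genes and larger in embryos for 60, and it was over 1 unit apart in only 17, with cells ahead in 9 and embryos ahead in 8.

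The genes formed a minority of what rose in either material. By the same rule 620 genes were higher in embryos (4.89% of all genes) and 398 in cells (3.14%), so that the 122 genes were 19.7% of the first and 30.7% of the second. In the lower direction the rule found 2.03% of all genes in embryos and 2.67% in cells. Another 100 genes reached the difference in both materials but had overlapping arrays. At the edge of the rule, the 3 genes just inside had a lower difference of 0.80, 0.81 and 0.81, and the 3 just outside had 0.80, 0.80 and 0.79. The edge is thus no gap, and 434 genes separated the arrays in both materials with a smaller difference.

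**Figure D1:**
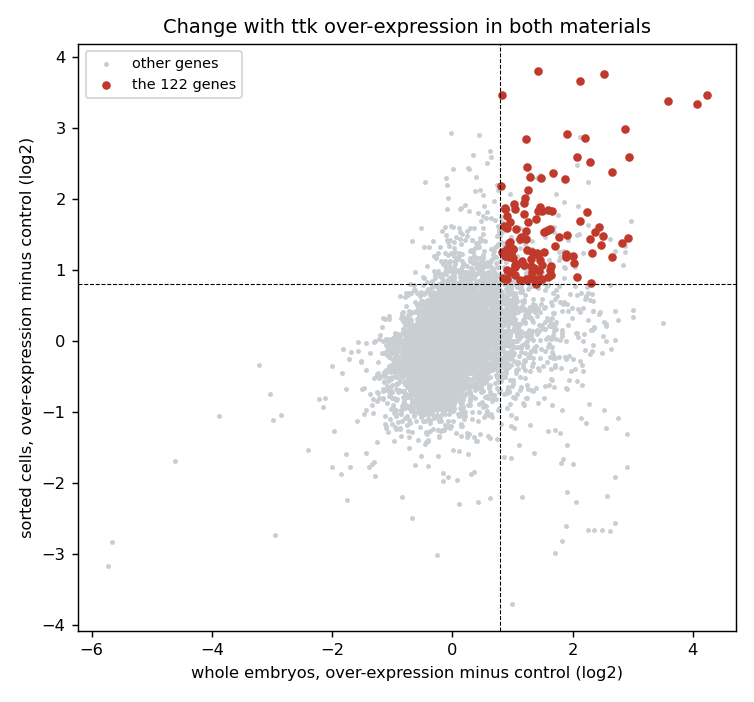
Each point is a gene, with the difference between over-expression and control on the log2 scale in whole embryos (x axis) and in sorted cells (y axis); dashed lines mark 0.8. The 122 genes (red) fill the upper right corner and reach 4.23 in embryos and 3.80 in cells.

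Most of these genes were low where ttk was not over-expressed. In control embryos of the over-expression experiment 110 of the 122 lay below the array median, at a median level of -2.18, and in control cells 92 did, at -1.45. On the arrays labelled over-expression the median level was -0.45 in embryos and 0.13 in cells, with 75 and 56 genes still below the array median. Raised genes thus mostly moved from a low level toward the middle of the array. No measure of detection was used here, so that a low level cannot be told from background.

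The over-expression embryos did not carry the rise equally. Over the control mean, the median difference of the 122 genes was 0.91 on replicate 1, 2.27 on replicate 2 and 0.90 on replicate 3, and 74, 116 and 68 genes reached 0.8 on them. Replicate 2 thus showed most of the embryo rise. In cells the median was 1.52 on replicate 1 and 1.27 on replicate 2, with 108 and 88 genes at 0.8 or more.

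Without over-expression embryo replicate 2 the rule chose 76 genes, of which 71 were among the 122. For these 71 the median embryo difference on replicates 1 and 3 was 1.34, and for the 51 genes that were lost it was 0.60, from 0.23 to 0.80. The 51 genes were still above every control array on both replicates, since the rule asked for this. All of the 12 genes with the highest lower difference stayed, and 8 of the 12 named or annotated genes did. Leaving out an over-expression cell array left a single one to lie above the controls. Without replicate 2, 276 genes met the rule, 108 of them among the 122. Without replicate 1, 118 genes met it, 88 of them among the 122. CG33272, FBgn0051233 and FBgn0051198, among the 12 highest, stood at -1.71, -3.15 and -3.09 on cell replicate 2. This was less than 0.8 above their control cell means of -2.20, -3.86 and -3.73.

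**Figure D2:**
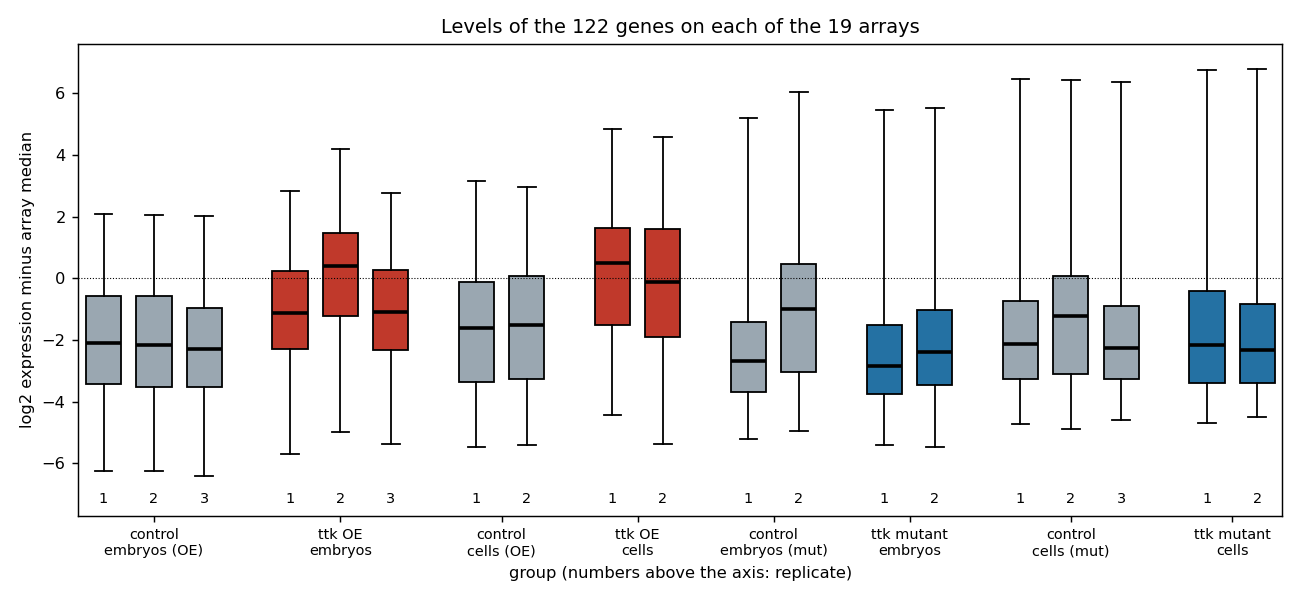
Levels of the 122 genes on the 19 arrays as log2 expression minus the array median, with groups on the x axis and replicate numbers above it. Boxes span the quartiles, the line is the median and whiskers reach the lowest and highest gene. Over-expression embryo replicate 2 (median 0.40) stands above replicates 1 and 3 (-1.12 and -1.10), and control embryo replicate 2 of the mutant experiment (-0.999) above replicate 1 (-2.68).

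The same genes also differed between arrays of 1 group in the mutant experiment, most in control embryos. Control embryo replicate 2 was above replicate 1 in 101 of the 122 genes, with a median difference of 1.27 against 0.09 over all genes, and the difference reached 1 in 66 of them (54.1%, against 17.1% of all genes). Its median was 1.16 over the 498 genes raised in embryos only and 0.45 over the 276 raised in cells only. The difference was thus not particular to the 122 genes. In control cells of the mutant experiment replicate 2 minus the mean of the other two reached 1 in 34 genes (27.9%, against 6.85%). Its median there was only 0.06, against -0.21 over all genes, and 64 of the 122 were above 0. In mutant embryos replicate 2 minus 1 reached 1 in 23 genes (18.9%, against 4.05%). In mutant cells it reached 1 in 2 genes (1.64%, against 2.73%), with a median of -0.12. Among the controls of the over-expression experiment, embryo replicate 3 against the other two reached 1 in 0 of the 122 genes (against 0.032% of all genes) and cell replicate 2 against 1 in 7 (5.74%, against 1.26%). The rule used these control arrays and asked that each lie below every over-expression array, so they are not set against the mutant experiment.

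Among over-expression embryos, on whose mean the genes were chosen, replicate 2 minus the mean of the other two had a median of 1.38. It was 1.635 over genes raised in embryos only, which the same arrays chose, and 0.236 over those raised in cells only. These array differences ran together across genes. The difference in control embryos of the mutant experiment and that in over-expression embryos, which share no sample, had a Pearson r of 0.513 over 12679 genes and 0.511 over the 122. Genes are not independent replicates, and no p is given. The 51 genes lost without over-expression embryo replicate 2 had a median of 1.51 for the control embryo difference, against 1.00 for the 71 that stayed.

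Markers moved on the same arrays. The tracheal markers trh, btl and dys together averaged -1.17 on control embryo replicate 2 of the mutant experiment against -0.08 on replicate 1, and -1.04 on over-expression embryo replicate 2 against 0.02 and 0.16 on replicates 1 and 3. The midline marker sim stood at -1.08 against 0.48 on the first pair and at -1.98 against -0.77 and -0.84 on the others. The means of the markers of mesoderm and muscle (twi and Mef2) and of haemocytes and fat body (srp and Adp) were also lowest on these arrays within their groups, at -0.42 and 0.27 on the control and at -1.37 and 0.13 on the over-expression array. Adp alone was higher on control embryo replicate 2, at 1.11 against 0.39 on replicate 1. The part of this in the rise of the 122 genes was not tested.

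**Figure D3:**
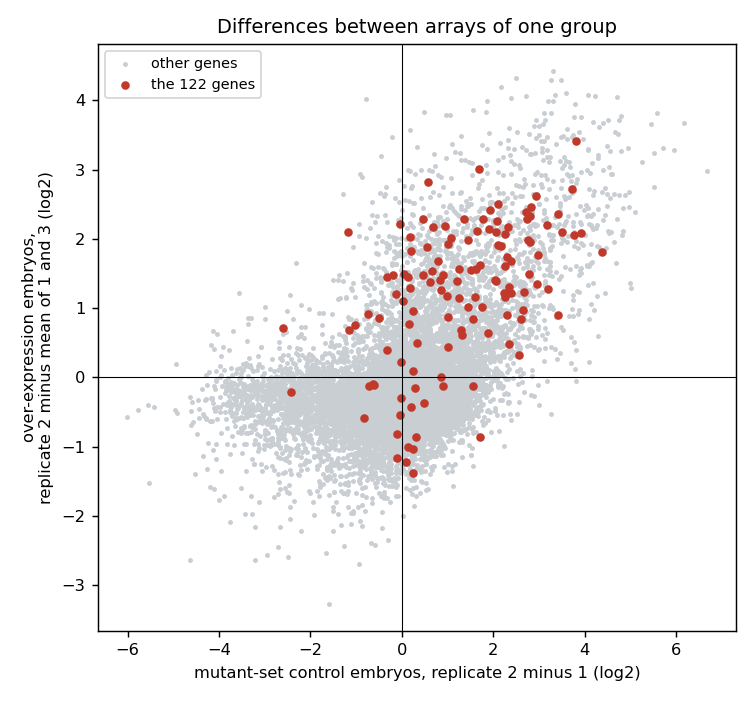
Each point is a gene, with control embryo replicate 2 minus 1 of the mutant experiment on the x axis and over-expression embryo replicate 2 minus the mean of replicates 1 and 3 on the y axis, both log2. The 122 genes (red) lie mostly in the upper right, with medians of 1.27 and 1.38, and r over all genes is 0.513.

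The tracheal markers trh, btl and dys together lay higher in cells than in embryos of the over-expression experiment, while in the mutant experiment the lowest control cell array reached into the embryo range. Their mean was 1.99 and 2.05 in control cells of the over-expression experiment against -0.08 to 0.04 in its control embryos, and 1.26 and 1.95 in over-expression cells. In the mutant experiment it was -0.13 to 1.48 in control cells and 0.64 to 1.08 in mutant cells. In these bulk samples, fewer cells of a type and less RNA per cell cannot be told apart.

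Ranked by the lower of the embryo and cell differences, the first gene was FBgn0035789, which has no name in the tables used. Control embryos gave -4.83, -5.11 and -5.37 and over-expression embryos -0.60, -1.65 and -0.37. In cells it went from -3.92 and -4.25 in the control to -0.93 and -0.32. It was thus near the bottom of the array in every control and was lifted on every over-expression array, by 4.23 in embryos and 3.46 in cells. Here replicate 2 was the lowest of the over-expression embryos. It also stayed low on all 9 arrays of the mutant experiment, from -4.87 to -3.59, and the change was -0.21 ± 0.29 (SE) in mutant embryos and 0.36 ± 0.20 in mutant cells.

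FBgn0038509 came next in this rank, with -3.67, -3.04 and -3.25 in control embryos and 0.34, -0.40 and 0.85 in over-expression embryos. Cells had -2.94 and -2.60 without and 0.67 and 0.55 with over-expression. Its rise of 3.58 and 3.38 was again not led by embryo replicate 2. In the mutant experiment control embryos stood at -3.37 and -3.25 and mutant embryos at -3.79 and -4.43, while control cells stood at -3.26 to -3.40 and mutant cells at -2.87 and -2.43. The mutant change was -0.80 ± 0.35 in embryos and 0.66 ± 0.20 in cells, neither past the thresholds.

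**Figure D4:**
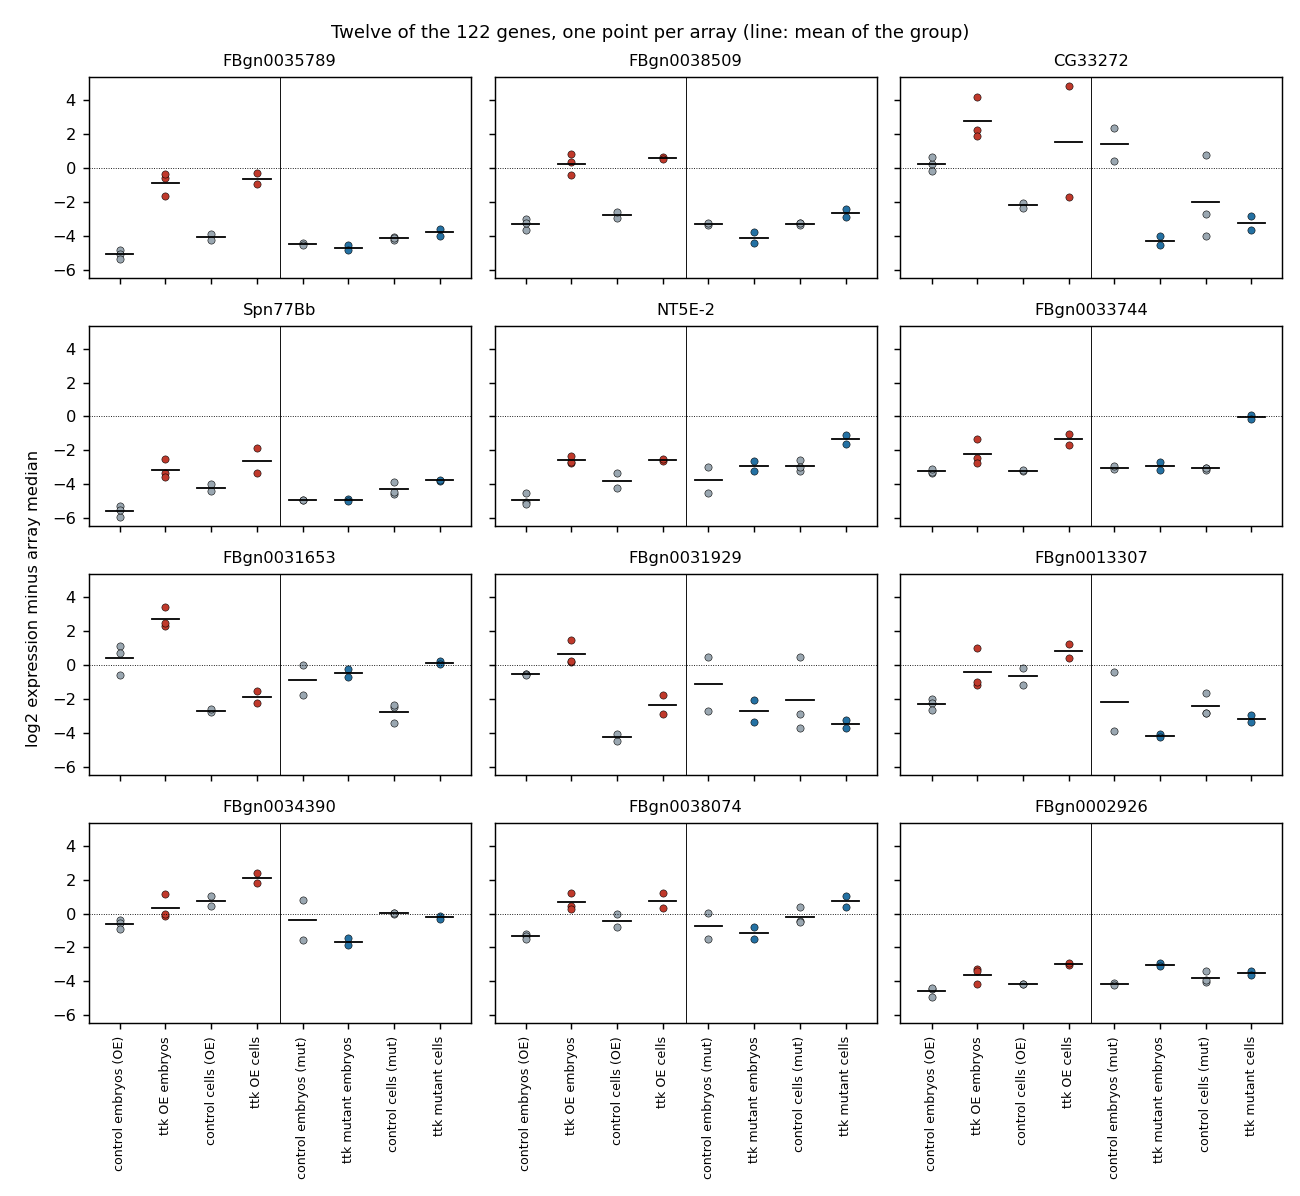
Levels of 12 of the genes (log2 expression minus the array median) in the 8 groups, 1 point per array and a line at the group mean. FBgn0035789 and FBgn0038509 rise on all over-expression arrays and stay low in the mutant experiment, whereas FBgn0033744 and FBgn0031653 are also high in mutant cells, and the points of CG33272 in over-expression cells lie far apart at 4.83 and -1.71.

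CG33272, for which no function is given, was the highest of the 3 genes with a symbol. It stood at 0.26, 0.66 and -0.19 in control embryos and at 2.23, 4.19 and 1.87 in over-expression embryos. In control cells it was -2.06 and -2.34, and in over-expression cells 4.83 and -1.71. Its mean rise of 3.76 in cells thus came almost wholly from 1 array, while the rise of 2.52 in embryos was seen on all 3. The mutant experiment gave 0.44 and 2.36 in control embryos against -4.0 and -4.58 in mutant embryos, a change of -5.69 (SE 0.75, limma unadjusted p = 0.0014, Benjamini-Hochberg adjusted p = 0.464). The groups did not overlap, and this was the lowest mutant change among the 122 genes. In mutant cells, at -2.81 and -3.66 against -4.05, 0.76 and -2.72 in control cells, the groups overlapped.

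Spn77Bb belongs to the serpins, a family made up largely of inhibitors of serine proteases. Its level rose from -5.29, -5.96 and -5.52 in control embryos to -2.53, -3.35 and -3.56, and in cells from -4.41 and -4.01 to -3.33 and -1.88. It was low throughout and yet 2.44 higher in over-expression embryos and 1.6 higher in over-expression cells. The mutant embryos at -4.89 and -4.97 lay around their controls at -4.95 and -4.96, and the change in mutant cells of 0.53 ± 0.25 did not pass.

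NT5E-2 is named after the mammalian enzyme NT5E, which makes adenosine from AMP outside the cell. Its levels were -5.07, -4.51 and -5.14 in control embryos, against -2.76, -2.66 and -2.33 with over-expression. Cells had -4.22 and -3.36 without and -2.62 and -2.49 with over-expression. The rise was 2.33 and 1.23. In mutant cells NT5E-2 stood at -1.07 and -1.63, above the 3 control cell arrays at -3.25, -2.58 and -2.96, by 1.58 ± 0.29 (limma, adjusted p = 0.0437). It was therefore higher with both manipulations in cells, where the rule had set the rise with over-expression. On the values as deposited, without centring, the mutant change was 0.90 and no longer reached 1. The change in mutant embryos of 0.83 ± 0.63 did not pass, and it was 1.60 and passed without control embryo replicate 2.

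Of the genes under proteolysis, FBgn0031653 was high in embryos and low in cells. Control embryos gave 1.15, 0.71 and -0.58 and over-expression embryos 2.31, 3.40 and 2.47, and in cells -2.78 and -2.63 against -1.52 and -2.27. It lay at the edge of the rule in cells, with a rise of 0.81 beside 2.30 in embryos. In mutant cells it stood at 0.21 and 0.07 against -2.50, -3.42 and -2.38, a rise of 2.91 ± 0.36 (limma, adjusted p = 0.0166). In mutant embryos the change of 0.42 ± 0.68 was within the spread of the arrays, and it was 1.29 and passed without control embryo replicate 2.

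FBgn0031929, the other gene under proteolysis, rose by 1.19 in over-expression embryos and 1.94 in cells. Its control cells at -4.46 and -4.08 lay far below its control embryos at -0.50 to -0.62. It followed, in the mutant experiment, the array differences described above, with control embryos at -2.70 and 0.50 and control cells at -3.74, 0.45 and -2.89, replicate 2 being high in both. The mutant embryos at -3.38 and -2.04 and the mutant cells at -3.70 and -3.27 overlapped their controls. Without control embryo replicate 1 the embryo change moved from -1.61 to -3.21 and passed.

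FBgn0033744 is listed under G-protein coupled receptor signalling, by which cells respond to many hormones and transmitters. Control embryos gave -3.36, -3.29 and -3.09 and over-expression embryos -2.48, -1.34 and -2.78, and it went from -3.25 and -3.18 to -1.68 and -1.04 in cells. The rise was 1.05 and 1.85. In the mutant experiment it was at -3.16 to -2.67 on all embryo arrays and at -3.15 to -3.02 in control cells, but at 0.11 and -0.13 in mutant cells. The change in mutant cells was 3.06 ± 0.17 (limma, adjusted p = 0.00293) and that in mutant embryos 0.10 ± 0.33. The deposited value was exactly equal on all 3 control cell arrays, so that the error of the change in cells holds no spread of the control. The 2 changes differed by 2.95 ± 0.33 (limma contrast on the 4 groups, adjusted p = 0.0248), the only one of the 122 genes for which this difference passed after adjustment.

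The 3 genes under amine metabolic process were FBgn0013307, FBgn0034390 and FBgn0038074. In embryos they rose by 1.90, 0.94 and 2.01 and in cells by 1.49, 1.38 and 1.19. FBgn0038074 was the most even, at -1.24 to -1.49 in control embryos against 0.45, 1.22 and 0.29 in over-expression embryos. FBgn0013307 stood at -1.16, 1.01 and -1.01 in over-expression embryos, and FBgn0034390 at -0.13, 1.14 and -0.02, so that replicate 2 was the highest in each. None of the 3 passed the thresholds in the mutant, with changes of -2.01, -1.26 and -0.41 in embryos for FBgn0013307, FBgn0034390 and FBgn0038074 and of -0.73, -0.25 and 0.90 in cells. Without control embryo replicate 1 the embryo changes were -3.76, -2.46 and -1.19 and all 3 passed. In cells FBgn0038074 passed without control cell replicate 3 (1.18) and without mutant cell replicate 1 (1.22), and FBgn0013307 passed on the deposited scale (-1.41).

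The other annotated genes rose by about 1 in each material. FBgn0004852, under small molecule metabolic process, rose by 1.00 and 1.29 and stood at -0.40, 1.84 and -0.43 in over-expression embryos, again highest on replicate 2. FBgn0031461, under axon guidance and enzyme linked receptor signalling, rose by 1.35 in embryos and 0.87 in cells. Its mutant embryos stood at -3.29 and -1.85 against -1.40 and -0.15 in the control (-1.80 ± 0.72, limma unadjusted p = 0.0641), a change that passed the thresholds with all 4 groups in 1 fit (unadjusted p = 0.0254), without control embryo replicate 1 (-2.42) and without replicate 2 (-1.17). FBgn0004852 had -0.81 ± 0.84 there and passed without control embryo replicate 1 (-1.85). FBgn0002926, under oogenesis and eggshell formation, rose by 0.98 in embryos and 1.19 in cells from levels of -4.92 to -4.17 in the controls. In mutant embryos FBgn0002926 was also higher, at -2.91 and -3.12 against -4.11 and -4.22, by 1.15 ± 0.28 (limma, unadjusted p = 0.0145, adjusted p = 0.464), a call that was lost without either mutant embryo array (1.04 without replicate 1 and 1.25 without replicate 2).

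No gene of the chitin list was among the 122. Chitin metabolic process covers the polymer of the cuticle and of the tracheal lumen, and the study listed 27 of its genes as raised in over-expression embryos. On these arrays 26 of the 27 met the rule in embryos, as the list was chosen for, with a median difference of 2.09. In cells 0 of them did, 2 were lower by the same rule, and the median was 0.10 with a range from -2.67 to 1.63. The difference between the materials was not tested. Of 29 genes held of the list for G-protein coupled receptor signalling, chosen on mutant cells, 1 was among the 122, and of 13 for eggshell formation, chosen on mutant embryos, 1 was.

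In mutant embryos the 122 genes were called higher about as often as all genes and lower somewhat more often. Under the study's thresholds of an absolute log2 fold change of at least 1 and an unadjusted p of 0.05 or below, 7 were higher and 7 lower (5.74% each), where 5.56% of all genes were higher and 3.20% lower. With limma and Benjamini-Hochberg adjustment 0 passed, in either direction, of the 122 and of all genes, and the lowest adjusted p was 0.464. An unadjusted p under 0.05 was seen in 16 of the 122 (13.1%), against 10.6% of all genes. Among genes raised in embryos only 8.23% were called higher and 6.43% lower, and among those raised in cells only 7.97% and 9.42%. The shares were thus not particular to the genes raised in both. The median change was -0.62 against -0.02 over all genes, and 90 of the 122 were below 0. This compares with medians of -0.55 over genes raised in embryos only and -0.29 over those raised in cells only.

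The lower median of the 122 genes rested on 1 control array. Against control embryo replicate 2 the median change of the 122 genes was -1.37, with 95 below 0, and against replicate 1 it was -0.02, with 62 below 0. Without replicate 1 the count of lower genes was 70 and that of higher genes 10, and without replicate 2 they were 15 and 13. Without mutant embryo replicate 1 they were 3 and 5, and without mutant embryo replicate 2 they were 4 and 3. The groups did not overlap in 41 genes that were lower and 17 that were higher, where 27.3% and 26.8% of all genes did not.

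The 7 higher genes rose by 1.15 to 3.70 and the 7 lower ones fell to between -5.69 and -1.31. The largest rise was that of FBgn0036043, from -0.45 and -3.05 in control embryos to 2.34 and 1.56 in mutant embryos (3.70 ± 0.98, limma adjusted p = 0.464). FBgn0051769 followed, from -4.53 and -3.92 to -0.89 and -1.29 (3.14 ± 0.37). Below CG33272, FBgn0033968 went from 2.08 and 3.07 in control embryos to -0.94 and 0.64 (-2.72 ± 0.71). In these 3 genes each mutant array lay outside the range of the controls. The call of FBgn0036043 was lost without either mutant embryo array (3.31 and 4.09), and that of FBgn0033968 without mutant embryo replicate 1 (-1.93).

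In mutant cells the 122 genes were called more often than all genes together, in both directions. Under the same thresholds 16 were higher and 16 lower (13.1% each), where 5.17% of all genes were higher and 4.57% lower. After Benjamini-Hochberg adjustment with limma 14 were higher and 6 lower, against 3.53% and 1.92% of all genes. The median change was -0.17 (all genes 0.01), and 38 genes were lower and 31 higher without overlap of the groups, where 18.6% and 22.5% of all genes were. Genes raised in 1 material only gave similar shares, with 10.4% higher and 12.9% lower among the 498 genes of embryos and 11.2% and 13.4% among the 276 genes of cells, so that the shares were not particular to the genes raised in both.

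The split in mutant cells depended on the scale. On the deposited values, on which the mutant cell arrays lie lower as a whole, 10 were higher and 36 lower with a median of -0.85. Without control cell replicate 3 the count of lower genes was 26. In control cells 36 of the 122 genes held a value that was exactly equal on at least 2 arrays, as did 26.2% of all genes. Of the 16 higher genes 10 held such equal values, as did 2 of the 16 lower ones. Without such genes 6 were higher and 15 lower.

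The 16 higher genes rose by 1.05 to 5.25 in mutant cells. FBgn0051769 rose the most, from -3.45, -4.10 and -3.70 to 2.09 and 0.91 (5.25 ± 0.41, limma adjusted p = 0.00526). FBgn0031439 went from -4.24, -4.29 and -4.25 to -0.48 and -1.16 (3.44 ± 0.25, adjusted p = 0.00465), with deposited values equal on a pair of the control arrays. Both lay far above every control array. Their over-expression cells stood lower than the mutant cells, at -2.35 and -2.69 for FBgn0051769 and at -4.42 and -2.23 for FBgn0031439. The experiments differ in temperature and controls, so these levels do not compare sizes of effect. The over-expression cell rise of FBgn0031439 came almost wholly from 1 array, as its control cells there stood at -4.71 and -4.43.

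The 16 lower genes had changes from -3.65 to -1.14. FBgn0034011 fell from -0.77, -0.29 and -0.39 in control cells to -4.12 and -4.15 in mutant cells (-3.65 ± 0.21, limma adjusted p = 0.00293). It was also lower in mutant embryos, at -4.31 and -3.48 against -2.39 and -0.14 (-2.63 ± 0.88, unadjusted p = 0.0387). Its over-expression rises had been 2.38 (embryos) and 1.53 (cells), and the mutant and over-expression changes thus had opposite signs in both materials. The sign with over-expression was set by the rule. FBgn0033268 fell from 2.22, 4.65 and 2.88 in control cells to 0.29 and 0.31 (-2.95 ± 0.72, adjusted p = 0.0905).

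**Figure D5:**
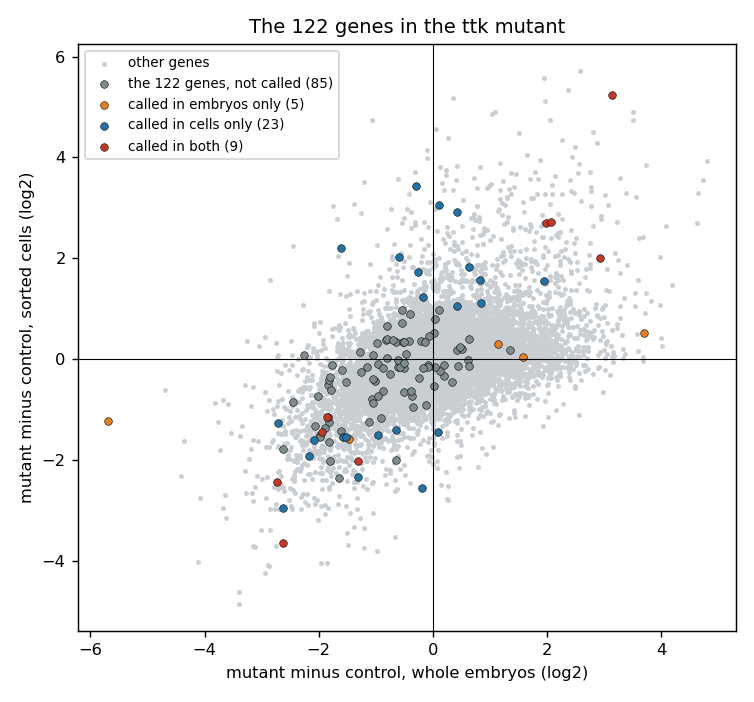
Each point is a gene, with mutant minus control on the log2 scale in whole embryos (x axis) and sorted cells (y axis). Of the 122 genes, 9 were called in both materials (red), 5 in embryos only (orange), 23 in cells only (blue) and 85 in neither (dark grey), and called genes lie both above and below 0.

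Across both mutant materials 4 of the 122 genes (3.28%, against 1.67% of all genes) were called higher in each and 5 (4.10%, against 0.749%) lower in each, 85 (69.7%, against 84.0%) were called in neither, and none was called in opposite directions. The 4 genes that were higher in both rose by 1.98 to 3.14 in mutant embryos and 2.00 to 5.25 in mutant cells. With over-expression they had risen by 0.90 to 1.89 in embryos and 0.92 to 1.19 in cells, as the rule required, so that they were higher in all 4 comparisons. The 5 lower genes had changes of -2.72 to -1.31 in mutant embryos and -3.65 to -1.14 in mutant cells, beside over-expression rises of 0.88 to 2.38 and 1.20 to 2.51. Differences of control replicate 2 from the other arrays of its group ran together between embryos and cells of the mutant experiment. Their Pearson r was 0.435 over all genes and 0.525 over the 122. The materials are therefore not taken as independent.

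By size alone, 26 of the 122 genes (21.3%) were at or below -1 in both mutant materials, against 4.34% of all genes, 16.5% of the 498 genes raised in embryos only and 15.9% of the 276 raised in cells only. At or above 1 in both were 5 of them (4.10%), against 2.52% of all genes, 6.22% of the genes raised in embryos only and 5.43% of those raised in cells only. The embryo value in this count rests in part on control embryo replicate 2.

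Between materials, the mutant change in cells minus that in embryos passed the study's thresholds upward in 10 of the 122 genes (8.20%, against 4.50% of all genes) and downward in 2 (1.64%, against 3.73%). For genes raised in embryos only and in cells only the upward shares were 8.23% and 7.61%, and the downward shares 3.41% and 6.16%. With Benjamini-Hochberg adjustment 1 passed upward, FBgn0033744, and 0 downward, against 0.197% and 0.0473% of all genes. The median of 0.48 turned to -0.21 when control embryo replicate 2 was left out and to -0.40 on the deposited values, so that it has no settled sign. Without control embryo replicate 1 the counts were 39 and 4, without replicate 2 they were 9 and 11, and without mutant embryo replicate 2 they were 14 and 4. The largest of those past the thresholds was FBgn0035193, at 3.81 ± 1.14 (limma, adjusted p = 0.299), whose mutant cells stood at 1.05 and -0.18 against -1.11, -1.02 and -3.17. FBgn0031439 followed at 3.74 ± 0.70, CG33272 had a larger value, 4.45 ± 1.92, that did not pass, and FBgn0036043 had the lowest value, -3.18 ± 1.0, which missed the threshold at -2.79 without mutant embryo replicate 1.

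Between control cells and control embryos of the mutant experiment, these genes were called higher about as often as all genes. They were called lower more often, on counts that changed with the array left out. In cells 10 were higher (8.20%, against 8.54% of all genes) and 10 lower (8.20%, against 4.36%), with limma at the same thresholds. After adjustment 0 passed in either direction, against 0.26% and 0.323% of all genes, while 26 (21.3%) had an unadjusted p under 0.05, as did 21.3% of all genes. The groups did not overlap in 27 genes that were higher and 13 that were lower, where 30.1% and 13.6% of all genes did not. The median was 0.06, against 0.17 over all genes, and turned to -0.49 without control embryo replicate 1. The counts of higher and lower genes were 4 and 27 without control embryo replicate 1 and 28 and 3 without control embryo replicate 2. They were 4 and 4, 5 and 7, and 10 and 4 without control cell replicates 1, 2 and 3.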

How the data were processed

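RNA of 19 samples was measured on 1-colour Affymetrix Drosophila Genome 2.0 arrays. The deposited table holds 1 log2 value per array and FlyBase gene, made by the authors in R with an ENSEMBL-based chip definition. RMA is named in the submitters' processing notes. The unit was taken from the range of the values, as it is not written beside them. Array medians ran from 6.17 to 9.29, and each array was centred on its median over the 12679 genes. The 182 control features were left out, and no gene was filtered.

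The mutant comparisons were fitted across all genes with limma 3.58.1 (lmFit and eBayes, R 4.3.3) on the 2 groups compared, and the difference between materials on all 4 groups, with two-sided tests. Calls follow the study's thresholds of a log2 fold change of 1 and an unadjusted p of 0.05, and Benjamini-Hochberg values were adjusted over all genes. With groups of 2 or 3 arrays the precision is limited by their number. The study describes its replicates as biological, with RNA pooled over sorting runs within a week. It left out an array each of control embryos, mutant embryos and mutant cells of the mutant experiment at quality control. The labels do not say how far replicates were separate collections, so p-values measure the spread between these arrays. The fits were tested on simulated data in which known genes changed.

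The genes and the gene lists were chosen with earlier results of these data known. Named are the genes with a symbol, those under a Gene Ontology term of the study (an addition made after the values were seen), and at most 2 unnamed genes per direction and comparison. Of all genes, 103 were paired to 1 symbol by the gene table, 2 to several and 9 by the study's marker table, and at most 25.0% of any list was paired. Alternatives were the deposited scale, quantile normalization, a filter on the lowest 25% of genes, an intensity trend, a replicate block, all groups in 1 fit, an adjusted p, and leaving out each array. Leaving out genes of equal values was added after the data were seen. A planned search of promoters was not run, as no sequences were used here.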

Additional observations from a re-analysis of the deposited data

Results flagged for a closer look

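The study's thresholds for the difference between the mutant change in cells and in embryos (limma contrast on the 4 groups) were passed by 12 of the 122 genes, 8 of which are given here as they are described above or lead a comparison. After adjustment over all genes only FBgn0033744 passed, at 2.95 (adjusted p = 0.0248), and its deposited value was exactly equal on all 3 control cell arrays. The same equal values were seen for FBgn0038509, at 1.46 (adjusted p = 0.251). The value of FBgn0031653 was 2.49 (adjusted p = 0.333), and it missed the unadjusted threshold on the deposited scale (1.61) and without mutant embryo replicate 1 (2.27). Higher in cells, though not after adjustment, were also FBgn0035193 at 3.81 (adjusted p = 0.299), FBgn0031439 at 3.74 (adjusted p = 0.112) and FBgn0051769 at 2.11 (adjusted p = 0.276). Lower were FBgn0036043 at -3.18 (adjusted p = 0.327) and FBgn0050026 at -2.38 (adjusted p = 0.312).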

How the results depend on the processing

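The rule chose 142 genes on the deposited values and 131 after quantile normalization, with 117 and 114 of the 122 among them, 78 at a difference of 1, 95 without the lowest 25% of genes, and 76 to 276 without 1 array. In mutant embryos the 7 higher genes were 3 to 13 without 1 array, and the 7 lower genes 3 to 70, 15 with all 4 groups in 1 fit and 32 with the replicate block. At an adjusted p 0 remained in each direction. In mutant cells the 16 higher genes were 15 to 17 without 1 array, 10 on the deposited scale and 6 without genes of equal values, and the 16 lower genes 11 to 26 without 1 array, 36 on the deposited scale, 35 with the replicate block and 6 at an adjusted p. The median there was -0.85 on the deposited scale. For control cells minus control embryos, the 10 higher genes were 2 on the deposited scale, 0 at an adjusted p and 4 to 28 without 1 array, and the 10 lower ones were 4 without genes of equal values, 0 at an adjusted p and 3 to 27 without 1 array. The median turned to -0.087 after quantile normalization, -0.49 on the deposited scale, -0.012 without the lowest 25% of genes and -0.49 without control embryo replicate 1, and ran from -0.49 to 0.55 without 1 array. For the difference between materials, the 10 higher genes were 5 on the deposited scale, 6 without genes of equal values, 1 at an adjusted p and 9 to 39 without 1 array, and the 2 lower ones were 18 on the deposited scale, 0 at an adjusted p and 2 to 11 without 1 array. Its median was -0.40 on the deposited scale and ran from -0.21 without control embryo replicate 2 to 1.34 without replicate 1. With the replicate block the counts of higher and lower genes were 11 and 14 for control cells minus embryos and 11 and 3 for the difference between materials. Deviations of same-numbered arrays correlated at 0.463 in embryos and at 0.132 and -0.383 in cells. With 2 arrays in each embryo group the value for other-numbered arrays is -0.463 by construction, so it cannot decide a pairing. Neither the labels nor 3 concordant pairs mark a shared source, and the arrays were taken as unpaired. For values of single genes and medians, 828 results kept their direction or their lack of a call, 37 passed the thresholds newly, 20 no longer did, 6 turned and 1 moved. The cause of these changes was not tested. Values near the bottom of an array limit how finely low genes can be compared.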
